A study of Homo sapiens with 6 samples.

Results

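SERPINB9 and its relatives of serpin clade B were examined in the established triple-negative breast cancer line MDA-MB-231 after knockdown of TIP-1, a small PDZ-domain protein encoded by TAX1BP3. The genes were taken by name: SERPINB1, SERPINB2, SERPINB5, SERPINB6, SERPINB7, SERPINB8 and SERPINB9. Of these 7 genes, 5 had a row of their own among the 21214 rows with a gene symbol (33297 rows in all), 1 row each. SERPINB2 and SERPINB6 are not analysed here, because no row carries their symbol in the probe table. The set was selected on measured values, the log2 signals of these arrays in the 3 groups, with SERPINB9 picked for its low signal with TIP-1 shRNA. The members' differences are therefore given as a description, and their calls support nothing.

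The study used 6 arrays in 3 groups: cells with TIP-1 shRNA 159 (clones A1 and A4), cells with TIP-1 shRNA 162 (clones B1 and B4) and cells with a control shRNA (clones 1 and 2). Per the labels, each group held 2 independent clones, grown in RPMI medium with serum, trypsinised, reseeded and cultured overnight before RNA was taken, with a single array per clone. Each clone is thus 1 replicate (n = 2 per group), and a difference between groups also holds whatever differed between the clones picked. The sources used here do not give the promoter that drives the hairpins or the hairpins' sequences. Values are log2 signals of Affymetrix Human Gene 1.0 ST probe sets, so a difference of 1 is a 2-fold change in signal. In these bulk cultures, fewer cells with a transcript and less transcript per cell cannot be told apart.

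Serpins are protease inhibitors that offer an exposed loop as bait. A protease that cuts the loop is trapped in a covalent complex and lost to the cell. Members of clade B lack a classical signal peptide and mostly stay in the cytoplasm and nucleus, where they guard cells against proteases that leak from granules and lysosomes or are delivered from outside. SERPINB9, also called PI-9, is the inhibitor of granzyme B, the protease with which cytotoxic lymphocytes kill their targets. It protects these lymphocytes from their own granules and is also made by many tumour cells. In the human genome the clade lies in a cluster on chromosome 6, which holds SERPINB1, SERPINB9 and SERPINB6, and a longer cluster on chromosome 18 with the other members.

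The sequences before the annotated starts of SERPINB9 and SERPINB1, the members with lower signal in all 4 shRNA clones, and of SERPINB8, a member that did not pass any comparison, are shown for comparison of their promoter classes. Each is the stretch of 250 bases just before the start in RefSeq, GRCh38.p14, written 5′ to 3′ on the gene's strand. RefSeq listed 1 start for each of these 3 genes. They lie at chr6:2903310-2903559 (SERPINB9, minus strand), chr6:2841864-2842113 (SERPINB1, minus strand) and chr18:63969831-63970080 (SERPINB8, plus strand). Capitals mark matches on either strand to the core promoter motif TATAAA, the motif CCAAT of nuclear factor Y, the GC box motif GGGCGG, the AP-1 motif TGANTCA, the STAT motif TTCNNNGAA and the TCF/LEF motif CTTTGNT.
SERPINB9: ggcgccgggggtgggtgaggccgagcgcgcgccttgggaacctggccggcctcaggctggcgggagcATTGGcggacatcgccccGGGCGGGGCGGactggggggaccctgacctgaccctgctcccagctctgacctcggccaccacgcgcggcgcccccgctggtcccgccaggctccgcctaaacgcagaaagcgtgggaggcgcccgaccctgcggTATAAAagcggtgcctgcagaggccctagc
SERPINB1: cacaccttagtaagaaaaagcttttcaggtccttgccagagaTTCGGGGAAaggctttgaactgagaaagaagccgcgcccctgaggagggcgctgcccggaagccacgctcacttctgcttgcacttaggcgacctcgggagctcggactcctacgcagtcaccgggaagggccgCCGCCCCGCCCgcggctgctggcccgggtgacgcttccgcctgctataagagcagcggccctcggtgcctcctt
SERPINB8: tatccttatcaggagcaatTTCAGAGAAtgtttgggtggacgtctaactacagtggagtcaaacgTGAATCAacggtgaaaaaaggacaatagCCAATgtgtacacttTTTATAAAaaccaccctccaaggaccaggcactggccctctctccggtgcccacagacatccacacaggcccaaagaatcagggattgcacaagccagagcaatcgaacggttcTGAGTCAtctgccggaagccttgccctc

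The SERPINB9 stretch was rich in G and C (74.4%) and held 27 CpG dinucleotides, against medians of 58.0% and 11 over 35116 RefSeq stretches of the same length. It had TATAAA starting 30 bases before the start, CCAAT (on the opposite strand) 183 bases before it, and a pair of GC boxes 165 and 160 bases before it that share a base. TATAAA stood in 10.7% of all stretches, CCAAT in 32.0% and GGGCGG in 42.6%. The SERPINB1 stretch had 63.6% GC, 21 CpG, a similar overlapping pair of GC boxes 74 and 69 bases before the start, and TTCNNNGAA 208 bases before it (6.57% of all stretches). It had no exact TATAAA, but the similar letters TATAAG stand near its end, unmarked because only exact matches were sought. The SERPINB8 stretch had 49.2% GC, 7 CpG, no GC box, and TGANTCA 185 and 28 bases before the start (6.57% of all stretches). It also held TTCNNNGAA once, as well as CCAAT and a pair of overlapping TATAAA matches on opposite strands, 142 and 140 bases before the start. None of the 3 stretches matched CTTTGNT, which was found in 13.2% of all stretches. SERPINB5, another member that passed no comparison, is not printed. Its stretch had 60.0% GC, 13 CpG and a similar pair of GC boxes, 77 and 72 bases before the start. The 3 stretches of SERPINB7, which also passed no comparison, held no GC box. A GC box was thus not particular to the members with lower signal. These matches describe letters and say nothing of binding, and their part in the differences was not tested.

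Marker lists were set beside the labelled cell line. None of the 10 genes of the mesenchymal list was below the lower quartile of its array (6.06 to 6.19); VIM and CD44 stood above 13 on the log2 scale on every array, while S100A4 lay between 6.55 and 7.02 and SPARC between 7.55 and 8.23. Among 18 keratinocyte and luminal markers, 2 to 4 per array were below it, so most of these lay above it too. Lying above this quartile therefore neither identifies the line nor shows expression. ESR1 and PGR lay between 5.83 and 6.56, but the keratin genes KRT8 and KRT18 lay between 11.84 and 12.40. Some of these markers differed between groups: the epithelial adhesion gene EPCAM rose by 0.94 with shRNA 159 (limma adjusted p = 0.00086), and with shRNA 162 the fibronectin gene FN1 fell by 0.71 (limma adjusted p = 0.0022) and KRT8 fell by 0.44 (limma adjusted p = 0.027). The KRT8 call was lost without control clone 1 or either shRNA 162 clone. The part of these markers in the serpin results was not tested. TAX1BP3, the target, read 10.40 and 10.40 in the shRNA 159 clones and 9.85 and 10.01 in the shRNA 162 clones, against 11.65 and 11.56 in the control clones. Both hairpin groups lay below control. The probe table lists P2RX5-TAX1BP3, a readthrough transcript, for the same row.

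SERPINB9, the granzyme B inhibitor, was the member with the lowest signal relative to control with either hairpin. It read 6.87 and 6.94 in the shRNA 159 clones and 7.41 and 7.37 in the shRNA 162 clones, against 8.60 and 8.45 in the control clones. The 3 groups did not overlap, and the shRNA 159 clones were the lowest. Clones of the same group differed by 0.07 (shRNA 159), 0.05 (shRNA 162) and 0.15 (control), while the highest shRNA clone lay 1.51 (shRNA 159) and 1.04 (shRNA 162) below the lower control clone.

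**Figure D1:**
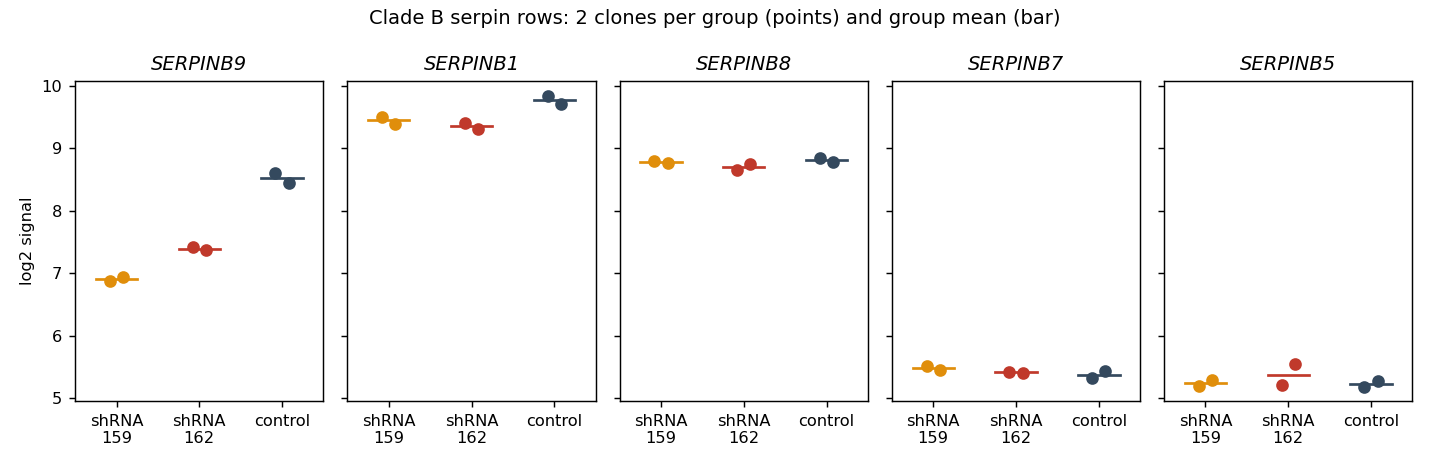
Log2 signal of the 5 clade B serpin rows in each clone; points are clones, bars are group means (2 clones each). SERPINB9 separates into 3 levels, SERPINB1 is lower in the 4 shRNA clones than in the control clones, and the other 3 rows lie close together across groups. Heights are comparable within a panel, not between panels, because rows differ in their probes.

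The group means of SERPINB9 were 6.91 ± 0.05 with shRNA 159 and 7.39 ± 0.03 with shRNA 162, against 8.53 ± 0.11 with control shRNA (log2, mean ± SD, n = 2 each). Relative to control, the difference was -1.62 with shRNA 159 (SE 0.08, 95% interval -1.81 to -1.43), or 32.5% of the control signal. With shRNA 162 it was -1.14 (SE 0.08, 95% interval -1.33 to -0.95), or 45.5% of the control signal. The shRNA 159 clones lay below the array medians (7.37 to 7.44), and the shRNA 162 clones lay near them. Signal at this level was not shown to be above background. These percentages therefore may not equal the share of transcript left. Among the 21214 rows, SERPINB9 had rank 3 from the lowest difference with shRNA 159 and rank 26 with shRNA 162. Both comparisons use the same control clones, so the 2 differences are not independent.

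The hairpins differed in SERPINB9 by -0.48 (shRNA 159 minus shRNA 162, SE 0.08, 95% interval -0.67 to -0.29), and the nearest clones of the 2 hairpin groups lay 0.42 apart. This order was the opposite of that of the target. TAX1BP3 stood at 43.4% of control with shRNA 159 and 31.3% with shRNA 162, so the hairpin with the higher TAX1BP3 signal had the lower SERPINB9 signal. The call for the difference between hairpins was lost without shRNA 162 clone 1 (-0.46) or clone 2 (-0.51).

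SERPINB1, the inhibitor of neutrophil elastase, cathepsin G and proteinase 3, lies next to SERPINB9 on chromosome 6 among the genes with a row. It read 9.51 and 9.39 in the shRNA 159 clones and 9.40 and 9.30 in the shRNA 162 clones, against 9.84 and 9.71 in the control clones. All 4 shRNA clones were below both control clones, and the clones of the 2 hairpins overlapped each other.

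The difference of SERPINB1 was -0.42 with shRNA 162 (SE 0.09, 95% interval -0.62 to -0.23), 74.5% of the control signal, which passed the limma test at a Benjamini-Hochberg adjusted p under 0.05. With shRNA 159 it was -0.33 (SE 0.09, 95% interval -0.52 to -0.13), 79.8% of the control signal, which did not pass. The 2 hairpins differed by 0.10 (95% interval -0.10 to 0.30), so a difference between them of up to 0.30 is not excluded by the interval. The call with shRNA 162 was lost when any of the 4 arrays compared was left out: the difference was -0.36 without control clone 1, -0.49 without control clone 2, -0.47 without shRNA 162 clone 1 and -0.38 without shRNA 162 clone 2.

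SERPINB8, an inhibitor of the proprotein convertase furin, read 8.79 and 8.76 in the shRNA 159 clones and 8.65 and 8.75 in the shRNA 162 clones, against 8.85 and 8.77 in the control clones. The shRNA 159 clones overlapped the control clones, and the shRNA 162 clones lay 0.03 below them at the nearest, less than the gap of 0.07 between the control clones. Its difference was -0.04 with shRNA 159 (95% interval -0.21 to 0.14) and -0.12 with shRNA 162 (95% interval -0.29 to 0.06).

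SERPINB7, or megsin, a serpin known from epidermis and kidney mesangium, and SERPINB5, or maspin, a serpin of mammary epithelium that does not act as a classical protease inhibitor and is often lost in breast carcinoma, were dim. Both rows lay below the lower quartile on all 6 arrays and were not shown to be above background. SERPINB7 read 5.52 and 5.45 in the shRNA 159 clones and 5.42 and 5.40 in the shRNA 162 clones, against 5.32 and 5.43 in the control clones. SERPINB5 read 5.20 and 5.29 in the shRNA 159 clones and 5.21 and 5.55 in the shRNA 162 clones, against 5.18 and 5.28 in the control clones. The one SERPINB5 value that stood out, 5.55 in shRNA 162 clone 2, was 0.34 above the other clone of that hairpin. Neither row passed any of the 4 comparisons; a change in a transcript at this signal may not be visible on the array.

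**Figure D2:**
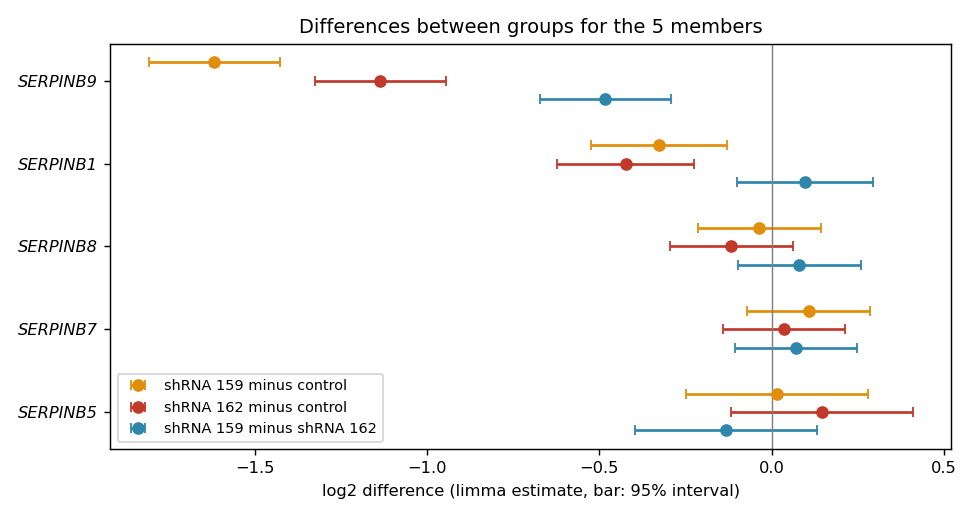
Log2 differences of the 5 members with 95% intervals from limma for shRNA 159 minus control, shRNA 162 minus control and shRNA 159 minus shRNA 162. The intervals of SERPINB9 lie below 0 in all 3 comparisons (-1.62, -1.14 and -0.48), those of SERPINB1 lie below 0 for either hairpin minus control, and those of the other 3 members include 0.

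By count, 1 of the 5 members passed with shRNA 159 minus control (SERPINB9, lower), beside 2.53% of all rows tested and 0.839% that were lower. With shRNA 162 minus control 2 of 5 passed, both lower, beside 9.52% and 3.64%. With the mean of both hairpins minus control 2 of 5 passed, both lower, beside 4.62% and 1.61%. For shRNA 159 minus shRNA 162 the 1 of 5 that passed, SERPINB9, was lower with shRNA 159, beside 8.65% and 4.64%. Both shRNA 159 clones were below both control clones in 2 of 5 members and 21.7% of rows, both shRNA 162 clones in 3 of 5 and 23.3%, and the 4 shRNA clones together in 2 of 5 and 8.9%. Both shRNA 159 clones were below both shRNA 162 clones in 1 of 5 members and 32.6% of rows. SERPINB9 was the 1 member that was lower and passed with each hairpin minus control, as did 0.339% of rows, and it was also lower and passed between hairpins, as did 0.0424% of rows. Since these comparisons entered the choice of the members, nothing is read from the counts.

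The other clade B serpins were examined as neighbours in sequence and place. SERPINB3, SERPINB4, SERPINB10, SERPINB11, SERPINB12 and SERPINB13 all lay below the lower quartile on all 6 arrays, and 0 of 6 passed in each of the 4 comparisons by limma. Over all rows tested, 2.53% passed with shRNA 159 and 9.52% with shRNA 162. For the mean of both hairpins 4.62% passed, and between hairpins 8.65%, so nothing is read from 0 of 6. The median difference of the 6 genes was -0.01 with shRNA 159 and 0.11 with shRNA 162, against -0.01 and 0.02 over all rows tested. SERPINB3 and SERPINB4 are near-identical copies, so their rows cannot be assigned to 1 gene with certainty. The row of SERPINB9P1, a pseudogene related to SERPINB9 that was looked at after its values were seen, read 6.73 and 6.86 in the shRNA 159 clones and 6.76 and 6.77 in the shRNA 162 clones, against 6.73 and 6.82 in the control clones. The groups overlapped there, with differences of 0.02 (SE 0.08) and -0.01 (SE 0.08) on the log2 scale.

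Along chromosome 6, the next protein-coding gene with a row on one side of SERPINB9 was SERPINB1. It was also lower (-0.33 with shRNA 159, -0.42 with shRNA 162). SERPINB6, in the same cluster, has no row. The other genes around SERPINB9 were counted beside the share of all rows that passed. Among 24 genes other than members around SERPINB9 in RefSeq order (DUSP22 to FARS2), 0 passed with shRNA 159 and 3 with shRNA 162. In these comparisons with control, 2.53% and 9.52% of all rows passed, and nothing is read from the counts. WRNIP1, beyond SERPINB1 on that side, differed by -0.09 with shRNA 159 and -0.03 with shRNA 162 (SE 0.07 each). NQO2 on the other side differed by -0.05 with shRNA 159 and -0.04 with shRNA 162 (SE 0.08 each). The 3 that passed with shRNA 162 were ECI2, a fatty acid oxidation enzyme, at -0.46 (SE 0.07), TUBB2A, a beta-tubulin, at -0.36 (SE 0.09), and the kinase gene PRP4K at 0.35 (SE 0.08). Each of these 3 calls was lost on leaving out any of the 4 arrays compared (ECI2 -0.47 to -0.46, TUBB2A -0.42 to -0.29, PRP4K 0.29 to 0.41). TUBB2A has 3 rows and was counted by its brightest; the other 2, identical to each other, stood at -0.28 and missed the threshold (limma adjusted p = 0.0504). The median difference of the 24 genes was -0.01 with shRNA 159 and -0.02 with shRNA 162. On chromosome 18, 0 of 28 genes around SERPINB8 other than members passed with shRNA 159, and 1 passed with shRNA 162, beside the same shares. The latter was DSEL, an epimerase-like gene of dermatan sulfate, at -0.61 (SE 0.11). That call was lost without control clone 1 or 2 or shRNA 162 clone 2, over a range of -0.76 to -0.46. Between hairpins 1 of the 28 passed, beside 8.65% of all rows. It was the lymphocyte receptor gene CD226 at -0.33 (limma adjusted p = 0.0499), a call lost on leaving out any of the 6 arrays.

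**Figure D3:**
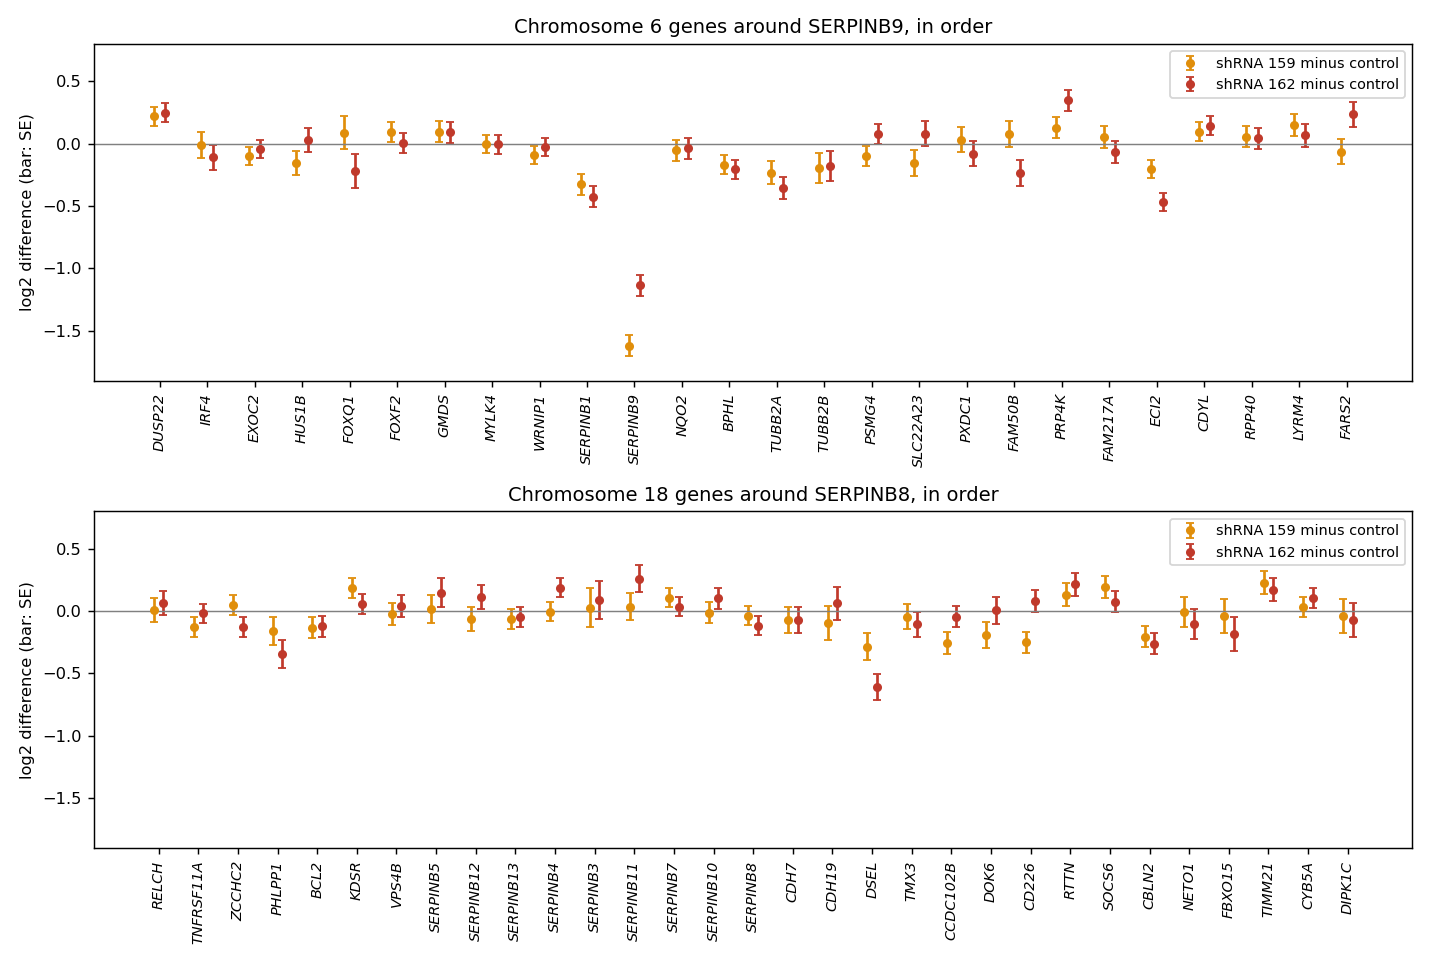
Log2 differences from control (points, with SE bars) for genes in chromosomal order around SERPINB9 on chromosome 6 and around SERPINB8 on chromosome 18; the horizontal axis gives order, not distance. On chromosome 6 SERPINB9 (-1.62 with shRNA 159, -1.14 with shRNA 162) stands below its neighbours, which range from -0.46 to 0.35.

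The proteases that clade B serpins trap were compared with their inhibitors. Granzyme B (GZMB), the target of SERPINB9, read 6.95 and 7.36 in the shRNA 159 clones and 7.19 and 7.20 in the shRNA 162 clones, against 7.16 and 7.26 in the control clones. The groups overlapped, and GZMB did not pass (-0.05 with shRNA 159 and -0.02 with shRNA 162, SE 0.13 each). PRF1, the pore-forming perforin that delivers granzymes, differed by -0.01 with either hairpin and did not pass. CTSG and ELANE, the cathepsin G and neutrophil elastase that SERPINB1 inhibits, differed by 0.02 and -0.15 with shRNA 159 and by 0.11 and -0.16 with shRNA 162. FURIN differed by 0.11 and -0.07. None of these 3 passed. GZMB, PRF1 and CTSG lay below the array medians (7.37 to 7.44) on every array and were not shown to be above background. Their lack of a call therefore does not show an expressed and unchanged transcript.

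In a list of 12 cytotoxic granule genes, 0 rose and 1 fell with shRNA 159, and 1 rose and 2 fell with shRNA 162. Over all rows tested, 2.53% passed with shRNA 159 and 9.52% with shRNA 162, and nothing is read from the list's counts. CTSC, the dipeptidyl peptidase that activates granzymes in granules and is a general lysosomal enzyme elsewhere, fell with both hairpins. It read 11.20 and 11.14 in the shRNA 159 clones and 11.53 and 11.53 in the shRNA 162 clones, against 12.12 and 12.02 in the control clones. The groups did not overlap, and the shRNA 159 clones were the lowest, as for SERPINB9. In log2 units CTSC fell by 0.90 with shRNA 159 (SE 0.08, limma adjusted p = 0.00095). It fell by 0.54 with shRNA 162 (SE 0.08, limma adjusted p = 0.0051). The call with shRNA 162 was lost without control clone 1 (-0.49). Between hairpins CTSC differed by -0.36 (limma adjusted p = 0.026), a call lost on leaving out any of the 4 hairpin arrays (-0.39 to -0.33). Both shRNA 159 clones lay below both shRNA 162 clones in 32.6% of all rows. SRGN, the granule proteoglycan serglycin, fell with shRNA 162 (-0.53, SE 0.07, limma adjusted p = 0.0046), and its difference with shRNA 159 was -0.15 (limma adjusted p = 0.42). Its order was the opposite of that of CTSC, 0.38 higher with shRNA 159 than with shRNA 162 (limma adjusted p = 0.017). That call was lost without either shRNA 162 clone or shRNA 159 clone 1. GZMA, the gene that rose with shRNA 162 (0.31, limma adjusted p = 0.049), lay below the lower quartile on all arrays, and its call was lost after quantile normalization and on leaving out any array of that comparison. Between hairpins 1 of the 12 was higher with shRNA 159 and 3 were lower, beside 8.65% of all rows that passed. Besides SRGN and CTSC they were GZMA at -0.40 (limma adjusted p = 0.020) and KLRD1 at -0.45 (limma adjusted p = 0.030). KLRD1 too lay below the lower quartile on all arrays. Both of these calls were lost after quantile normalization. The list's median was -0.12 with shRNA 159 and -0.02 with shRNA 162, against -0.01 and 0.02 over all rows.

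Of 36 genes for target proteases and partners, 1 rose and 0 fell with shRNA 159, and 0 rose and 2 fell with shRNA 162. The shares of all rows that passed were 2.53% and 9.52%. PLAU, the urokinase that SERPINB2 inhibits, rose by 0.47 with shRNA 159 (SE 0.09, limma adjusted p = 0.029), with 10.04 and 10.10 in the shRNA 159 clones, against 9.54 and 9.66 in the control clones. That call was lost after quantile normalization and on leaving out any of the 4 arrays compared (0.41 to 0.53). With shRNA 162 PLAU differed by 0.24 (limma adjusted p = 0.13). PLAT, the tissue plasminogen activator, fell with shRNA 162 by 0.49 (SE 0.09, limma adjusted p = 0.013), and PLAUR, the urokinase receptor, fell by 0.29 (SE 0.07, limma adjusted p = 0.045). The PLAT call was lost without control clone 1 or either shRNA 162 clone, and the PLAUR call without any of the 4 arrays compared. Between the hairpins, 3 of the 36 were higher with shRNA 159 and 0 lower, beside 8.65% of all rows that passed. They were PLAT by 0.55, CTSD, a lysosomal aspartic protease, by 0.54 and PLAUR by 0.37. The CTSD call held without any single array, the PLAT call was lost without either shRNA 162 clone, and the PLAUR call was lost without either of these or shRNA 159 clone 2. The list's median was -0.01 with shRNA 159 and -0.06 with shRNA 162.

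**Figure D4:**
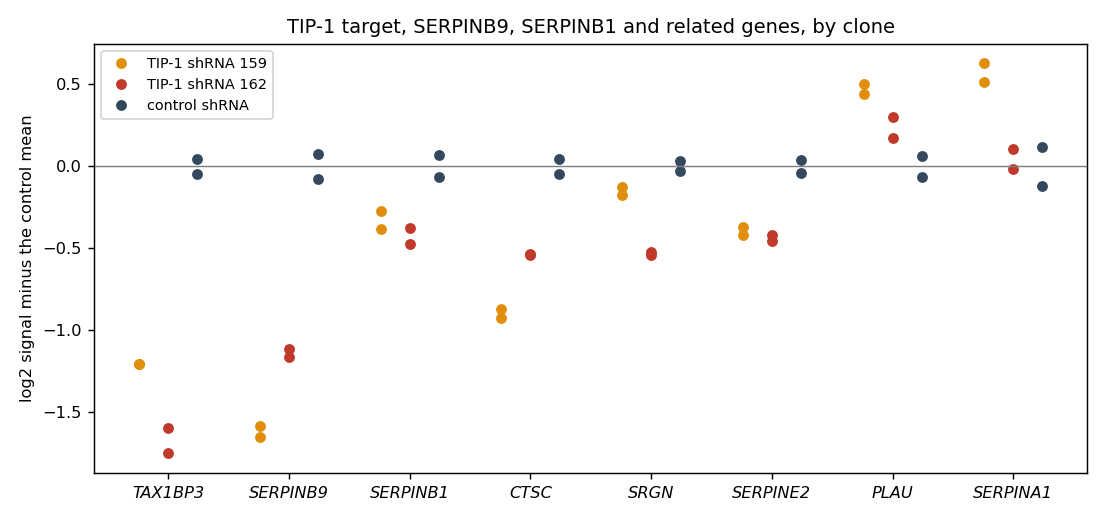
Log2 signal of each clone minus the mean of the control clones for TAX1BP3, SERPINB9, SERPINB1, the protease genes CTSC and PLAU, the proteoglycan gene SRGN and the serpins SERPINE2 and SERPINA1; 2 clones per group. With shRNA 159 the TAX1BP3 clones are higher and the SERPINB9 and CTSC clones lower than with shRNA 162.

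Serpins of other clades, most of which are secreted, were counted in the same way. Of 21 genes, 1 rose and 1 fell with shRNA 159, and 0 rose and 1 fell with shRNA 162. Beside this, 2.53% and 9.52% of all rows passed, and nothing is read from these counts. SERPINE2, or protease nexin 1, a secreted inhibitor of thrombin and urokinase, fell by 0.40 with shRNA 159 (SE 0.08, limma adjusted p = 0.034) and by 0.44 with shRNA 162 (SE 0.08, limma adjusted p = 0.011). It read 9.03 and 8.98 in the shRNA 159 clones and 8.98 and 8.95 in the shRNA 162 clones, against 9.44 and 9.36 in the control clones, with no overlap. Both calls were lost on leaving out any array compared (-0.43 to -0.36 with shRNA 159, -0.47 to -0.40 with shRNA 162). SERPINA1, the alpha-1 antitrypsin that inhibits neutrophil elastase in plasma, rose with shRNA 159 by 0.57 (SE 0.10, limma adjusted p = 0.026) and read 7.08 and 7.20 there, against 6.45 and 6.69 in the control clones; that call too was lost without any of the 4 arrays compared (0.45 to 0.69). It differed by 0.05 with shRNA 162. SERPINH1, a collagen chaperone, was 0.38 higher with shRNA 159 than with shRNA 162 (limma adjusted p = 0.029), a call lost on leaving out any of the 6 arrays.

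SERPINB9 is abundant in leukocytes, so a leukocyte list was set beside it. The summed linear signal of its 14 genes was 8207 and 8250 in the shRNA 159 clones and 7275 and 7573 in the shRNA 162 clones, against 10536 and 10890 in the control clones. Most of this sum came from LCP1, LAPTM5 and CD68, which lay between 9.10 and 11.83 on the log2 scale. LCP1, the actin-bundling L-plastin, fell by 1.31 with shRNA 159 (limma adjusted p = 0.00011) and fell by 2.34 with shRNA 162 (limma adjusted p = 3.7e-06). LAPTM5, a lysosomal membrane protein, fell by 0.32 with shRNA 162 (limma adjusted p = 0.032), a call lost without any of the 4 arrays compared, and differed by -0.24 with shRNA 159. The other 12 genes did not pass for either hairpin minus control. Their summed linear signal was 4060 and 4241 in the shRNA 159 clones and 3939 and 4233 in the shRNA 162 clones. In the control clones it was 4175 and 4608, so most of the drop in the full sum lay in LCP1 and LAPTM5. Of the 14 genes, 3 lay below the lower quartile on all 6 arrays, PTPRC among them. PTPRC read 5.13 and 5.03 in the shRNA 159 clones and 5.14 and 5.19 in the shRNA 162 clones, against 5.10 and 4.84 in the control clones. The part of these genes in the SERPINB9 result was not tested.

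Across the 6 arrays, the rows whose pattern was most like that of SERPINB9 were taken by Pearson correlation among 270 rows with 1 symbol that spanned at least 1 on the log2 scale. The 5 closest rows were a pair of identical rows of CSF2RA, which encodes the alpha chain of the GM-CSF receptor (r = 0.951), and the rows of ADAMTS1, a secreted matrix protease (r = 0.933), CD96, a receptor of lymphocytes that binds nectin-like proteins (r = 0.929), and UCA1, a long non-coding RNA (r = 0.918). With n = 6 arrays in 3 groups, r mostly reflects the group means, and all rows share the same arrays and clones. CSF2RA read 6.71 and 6.82 in the shRNA 159 clones and 7.34 and 7.32 in the shRNA 162 clones, against 7.86 and 7.67 in the control clones. UCA1 read 10.25 and 10.09 in the shRNA 159 clones and 11.02 and 11.33 in the shRNA 162 clones, against 11.99 and 11.63 in the control clones. Both shared the order of SERPINB9, lowest with shRNA 159. ADAMTS1 and CD96 did not: their hairpin groups overlapped, with differences of 0.02 and 0.01 for shRNA 159 minus shRNA 162. CD96 read 6.33 and 6.44 in the shRNA 159 clones and 6.35 and 6.39 in the shRNA 162 clones. In the control clones it read 7.48 and 7.82. The shRNA clones were thus little above the array lower quartiles (6.06 to 6.19), where an order between hairpins may not be visible.

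**Figure D5:**
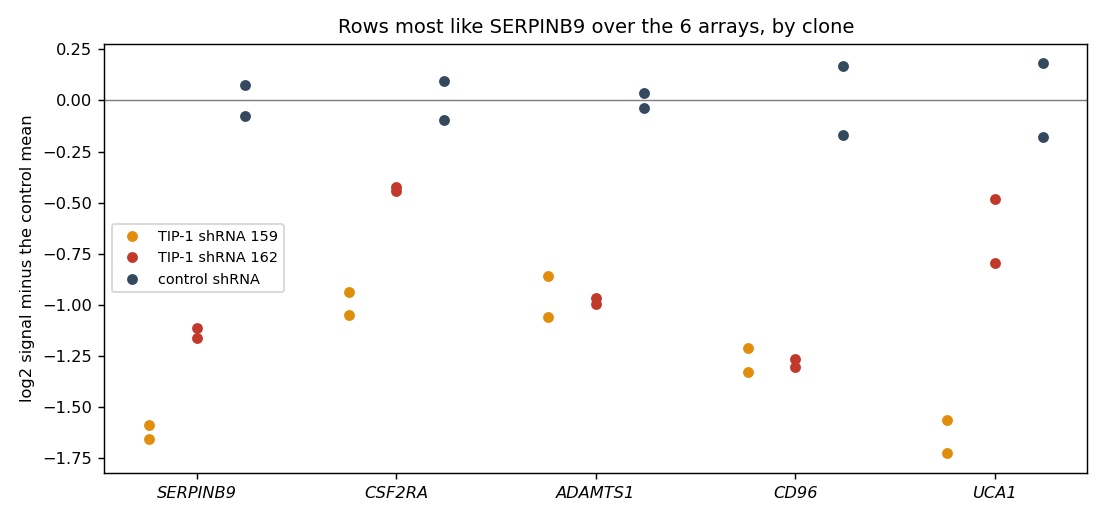
Log2 signal of each clone minus the control mean for SERPINB9 and the 4 genes whose rows were most like it over the 6 arrays (CSF2RA, ADAMTS1, CD96 and UCA1); 2 clones per group. SERPINB9, CSF2RA and UCA1 are lower with shRNA 159 than with shRNA 162, while the hairpin groups overlap for ADAMTS1 and CD96.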

How the data were processed

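The authors deposited log2 signals for each probe set on each array, made with the Affymetrix Exon Array Computational Tool, per the labels' design text. The sources used here do not give its settings, and base 2 was inferred from the range of values (2.29 to 14.65). Array medians lay between 7.37 and 7.44. Arrays give no count depth, and their number limits the precision. Values were used without further scaling. Of 33297 rows, 21214 carried a symbol in the platform's probe table (19460 with 1, 1754 with several) and were tested. One 3-group linear model per row was fitted with limma 3.58.1 in R 4.3.3 (lmFit, eBayes, 3 residual and 5.31 prior degrees of freedom). Tests were two-sided, with Benjamini-Hochberg adjustment over all rows tested and a threshold of 0.05. The fit was tested on simulated data. Where several rows named 1 gene, the brightest stood for it. Names of neighbours came from RefSeq (GRCh38.p14); promoter sequences are RefSeq's. Figures used matplotlib 3.10.9.

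The members, gene lists and comparisons were chosen with earlier results of these data known. Named genes were the members, TAX1BP3, up to 4 genes per list that passed, protease genes named for their role, and the 5 rows most like SERPINB9. WRNIP1, NQO2, SERPINB9P1 and single markers were picked with their values already seen. Alternatives were quantile normalization, brighter rows, all rows, a variance trend, a replicate block, each array left out and a fit restricted to the groups compared. For the mean of both hairpins, the 4 shRNA clones were also pooled into 1 group, or the hairpin was modelled as a random block. Leaving out arrays for the gene lists was added after seeing the data.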

Additional observations from a re-analysis of the deposited data

Results flagged for a closer look

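SERPINB9 differed between the hairpins in their effect relative to control. The difference of shRNA 159 minus shRNA 162 was -0.48 on the log2 scale (SE 0.08), with both shRNA 159 clones below both shRNA 162 clones. It passed limma at an adjusted p under 0.05, beside 8.65% of all rows tested. This contrast was among those known when the gene was chosen.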

How the results depend on the processing

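SERPINB9 passed in all 12 alternatives run for either hairpin minus control (-1.70 to -1.54 with shRNA 159, -1.21 to -1.06 with shRNA 162) and in all 13 for the mean of both. Between hairpins it passed in 9 of 12. SERPINB1 passed with shRNA 162 in 7 of 12 (-0.49 to -0.36). With shRNA 159 it passed in 1 of 12, the variance trend. The brighter rows, all rows, variance trend and replicate block could not move a member's difference, only its error and adjusted p. A sign kept in those fits was therefore fixed in advance. SERPINB8 passed in none, nor did SERPINB5 and SERPINB7, which the brighter rows leave out.

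The lists counted here hold 23 chromosome 6 and 16 chromosome 18 neighbours, not the 24 and 28 genes taken in chromosomal order. Counts are given in the order shRNA 159 minus control, shRNA 162 minus control, mean of both minus control, and shRNA 159 minus shRNA 162. Over all rows 537, 2019, 980 and 1836 passed. With unnamed rows tested too, 111, 691, 226 and 593 passed, and members numbered 1, 1, 1 and 0. With a variance trend 1137, 3482, 2265 and 3022 passed, and members with shRNA 159 numbered 2. For the mean of both, 71 rows and 1 member passed with the 4 shRNA clones as 1 group, and 27 and 1 with the hairpin as a random block. Quantile normalization moved the split of calls: with shRNA 162 minus control 1078 rows were higher and 1074 lower (1247 and 772 as deposited), and for the mean of both 565 and 459 (639 and 341 as deposited). After it 0 of the target proteases passed with shRNA 159 and 0 for the mean of both, 2 granule genes between hairpins and 1 chromosome 6 neighbour between hairpins. Among the brighter rows 2 serpins of other clades and 2 chromosome 18 neighbours passed with shRNA 162, and 2 granule genes, 1 chromosome 6 and 1 chromosome 18 neighbour between hairpins. The cause of these shifts was not tested.

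Without 1 array, all-row counts ranged over 142 to 512, 526 to 2416, 187 to 1138 and 597 to 1352, and member counts over 1 to 1, 1 to 2, 1 to 2 and 0 to 1. Ranges were 0 to 1, 0 to 1, 0 to 1 and 0 to 1 for serpins of other clades, 0 to 1, 0 to 2, 0 to 0 and 1 to 4 for target proteases, 1 to 1, 1 to 3, 1 to 2 and 0 to 4 for granule genes, 0 to 0, 0 to 3, 0 to 1 and 0 to 1 for chromosome 6 neighbours, and 0 to 0, 0 to 1, 0 to 1 and 0 to 0 for chromosome 18 neighbours. A lone clone was then assumed to vary like the other groups.

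The clones share numbers in the titles, and the labels call them independent clones. Because of that wording the main model did not pair the clones by number. Across rows, the deviations of clone 1 from its group mean correlated at -0.05 (control and shRNA 162), 0.26 (control and shRNA 159) and -0.03 (the 2 hairpins). The 0.26 shows some shared deviation between control and shRNA 159 clones of the same number, and its source was not tested. With the clone number as a replicate block 584, 2128, 1011 and 1983 rows passed, and the counts of members were unchanged at 1, 2, 2 and 1.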
